A study of Mus musculus with 25 samples.

Results

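Leukocytes are the blood-derived cells of the immune system, and the 38 genes described here are ones whose RNA marks them in a sample of mouse skin. The genes were chosen by name, as listed rows of the study's count table, and all 38 were among its 24061 genes. The choice was made with earlier results of these data known, so shares of members set against all genes are descriptive. They comprised 7 genes of the major histocompatibility complex (MHC) class II system, 10 genes used by leukocytes of many kinds, 14 myeloid genes (macrophages, monocytes, granulocytes and dendritic cells), 6 genes of T cells and natural killer (NK) cells, and Cd207, which encodes langerin and marks Langerhans cells. None of the cells sequenced were sorted as leukocytes. Every RNA library was made from cells gated as skin epithelium or as tumour cells, so the values give the RNA of these genes within each epithelial gate, and which cells made it was not tested.

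MHC class II molecules are made chiefly by dendritic cells, Langerhans cells, macrophages and B cells, which cut up proteins they have taken in and show the pieces to CD4 T cells. Keratinocytes can also make class II molecules when exposed to interferon gamma. The alpha and beta chains (H2-Aa, H2-Ab1, H2-Eb1) pair in the endoplasmic reticulum with the invariant chain Cd74, which fills the groove, the H2-DM heterodimer (H2-DMa, H2-DMb1) later loads the peptide, and Ciita is the coactivator that switches the set on. In resting skin, Langerhans cells and dendritic epidermal T cells live between the keratinocytes of the epidermis, while most macrophages lie in the dermis.

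The cells were stem cells of mouse skin at rest and after wounding, and cells of grafted squamous cell carcinomas. RNA was counted in 21 libraries, which fall into the sets CL, BK and DS by their titles. The unwounded libraries of CL and BK were hair follicle stem cells (HFSC; negative for lineage markers, high for integrin alpha 6, CD34+Sca1-) and epidermal stem cells (EpdSC; the same but CD34-Sca1+), with 2 libraries of each in each set. The CL set also held 2 libraries of the wounded HFSC lineage (lineage negative, integrin alpha 6 high, YFP+) and 2 of wounded EpdSC (the same but YFP-), from Sox9CreER;R26-YFP mice, in which the Cre of Sox9-expressing cells puts a lasting YFP mark on the follicle lineage. Wound and gate therefore changed together in CL. The single wounded EpdSC library of BK was gated as lineage negative and integrin alpha 6 high, with no YFP mark. Its column in the count table carries the added tag A5pos3, which its title lacks and whose meaning was not established. These libraries, and those labelled Tbr, are of postnatal day 60, and all 21 were of female B6 mice. Libraries whose cell type label does not mention wounding are called unwounded here, although a treatment note shared by samples of both kinds names a wound biopsy. The DS set held 1 HFSC and 1 EpdSC library labelled Tbr, a term that the labels do not explain, and 6 libraries of GFP+ tumour cells, 1 each with high (IntA6Hi) and low (IntA6Lo) integrin alpha 6 from tumours labelled HRas, HRas TbrKO and TbrKO. The labels of the tumour libraries name no lineage gate. Which antibodies made up the lineage gate was not named in the labels. In a bulk library, fewer cells of a type and less RNA per cell cannot be told apart.

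The promoters of a few members are shown with the motifs known from their classes. Class II promoters carry an X box and a Y box, a CCAAT sequence bound by the factor NF-Y, and Ciita acts on the proteins assembled there. Many myeloid genes are driven by PU.1, the product of the member Spi1, which binds purine-rich sites such as AGGAAGT. The 180 bases before the annotated start are shown, 5′ to 3′ on the gene's own strand, from the RefSeq promoter table on build GRCm38.p6. In the first 3, which belong to class II genes whose starts carried a peak of open chromatin in HFSC, capitals mark CCAAT or its reverse complement ATTGG, and AGCAAC, the core of the X box. In the last 3, which belong to genes that dominate later comparisons, capitals mark AGGAAGT or its reverse complement ACTTCCT.
H2-Eb1, chr17:34305687-34305866, plus strand: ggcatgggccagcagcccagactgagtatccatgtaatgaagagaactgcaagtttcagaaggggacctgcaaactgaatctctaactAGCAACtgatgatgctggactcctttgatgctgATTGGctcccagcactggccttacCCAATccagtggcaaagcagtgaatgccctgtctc
H2-DMb1, chr17:34153011-34153190, plus strand: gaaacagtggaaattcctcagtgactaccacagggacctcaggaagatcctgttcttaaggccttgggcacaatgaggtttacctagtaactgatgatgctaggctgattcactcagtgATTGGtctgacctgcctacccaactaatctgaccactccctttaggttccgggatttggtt
H2-Aa, chr17:34287824-34288003, minus strand: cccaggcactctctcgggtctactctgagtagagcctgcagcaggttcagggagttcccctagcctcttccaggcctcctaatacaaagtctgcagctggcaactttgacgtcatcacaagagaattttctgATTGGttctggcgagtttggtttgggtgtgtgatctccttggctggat
C1qb, chr4:136886201-136886380, minus strand: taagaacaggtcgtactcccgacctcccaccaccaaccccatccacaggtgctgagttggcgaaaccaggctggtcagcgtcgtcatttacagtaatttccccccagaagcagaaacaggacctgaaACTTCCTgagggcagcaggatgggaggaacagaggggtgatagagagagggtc
Lyz2, chr10:117282273-117282452, minus strand: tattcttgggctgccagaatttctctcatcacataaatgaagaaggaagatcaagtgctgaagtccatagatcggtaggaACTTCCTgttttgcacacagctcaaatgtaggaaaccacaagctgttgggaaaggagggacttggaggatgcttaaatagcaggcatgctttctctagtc
Wdfy4, chr14:33185067-33185246, minus strand: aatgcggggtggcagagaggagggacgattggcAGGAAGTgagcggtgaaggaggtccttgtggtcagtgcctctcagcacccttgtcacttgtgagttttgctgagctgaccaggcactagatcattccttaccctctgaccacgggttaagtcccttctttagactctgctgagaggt

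CCAAT or its reverse complement lay within the 300-base window (250 bases before to 50 after the start) of all 4 class II members with a promoter entry, of 12 of the 29 members with one, and of 41.1% of all 27025 genes with an entry, so its share among the members was that of all genes. AGCAAC or its reverse complement was found in 5 of the 29 members and in 16.7% of all genes, again about the same share, and in H2-Eb1 it began 92 bases before the start. AGGAAGT or its reverse complement was found in 10 of the 29 members, against 10.7% of all genes. Those 10 were 5 of 9 leukocyte-wide, 3 of 9 myeloid and 2 of 6 T and NK cell genes, and 0 of 4 class II genes. H2-Eb1 and H2-DMb1 share the 13 bases aactgatgatgct, which begin 89 and 92 bases before their starts and were found in the windows of 3 of the 27025 genes, the other being Slc39a10. That run was picked out after the letters were seen. A match of letters is a description and shows no binding.

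The libraries held 14216472 to 36425082 counts each. Levels are CPM, counts scaled to a common library total with TMM factors over all 21 libraries together, and 3 counts correspond to 0.0858 to 0.193 CPM depending on the library. In the 10 unwounded libraries the 38 members together made up 74.1 to 290.5 CPM. Over the same libraries the sum of 6 keratinocyte markers (Krt5, Krt14, Krt15, Itga6, Trp63, Cdh1) lay between 29510 and 97690 CPM. Those sums, mostly of Krt5 and Krt14 there, were 148000 and 92260 CPM in the wounded EpdSC libraries of CL and 24290 to 37600 CPM in the tumour libraries, so every library held abundant keratinocyte RNA.

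**Figure D1:**
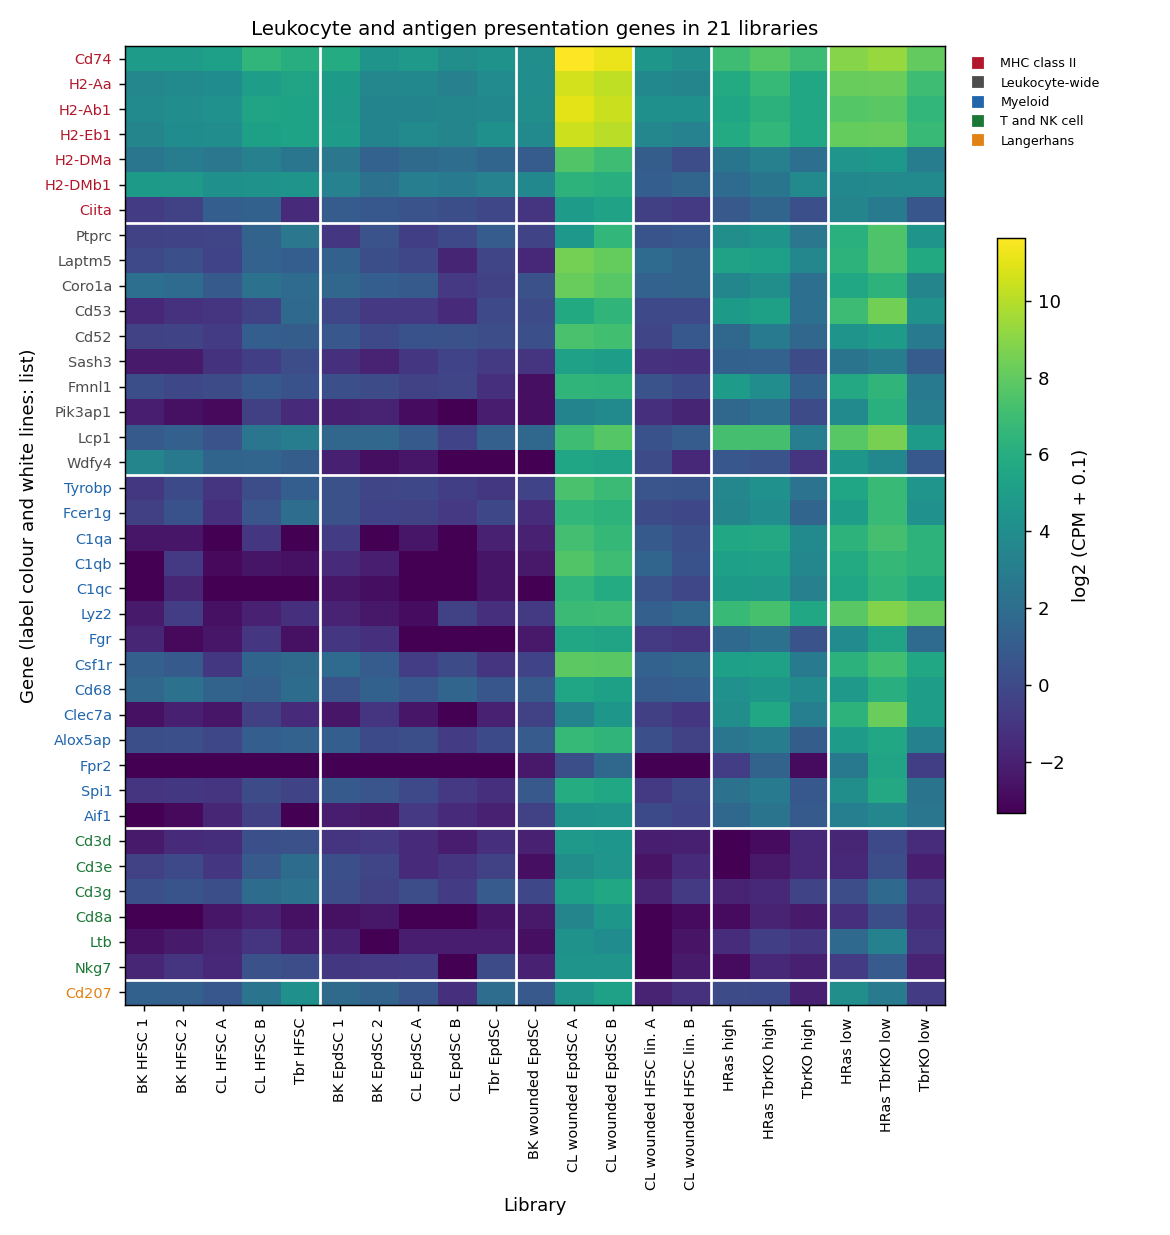
Level of each of the 38 members (rows, grouped by list) in each of the 21 libraries (columns), as log2 of CPM plus 0.1. The 2 wounded EpdSC libraries of CL are high for all 38 members, and the tumour libraries, the low integrin gate above the high, are high for most myeloid and leukocyte-wide members but not for the T and NK cell members.

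The 4 marker genes give the pattern in outline. Cd74 ran from 16.5 to 90.9 CPM, with a median of 30.2, over the 10 unwounded libraries. It stood at 3179 and 2352 CPM in the wounded EpdSC libraries A and B of CL, at 17.0 CPM in that of BK, and at 23.6 and 16.9 CPM in the wounded HFSC lineage. In the order HRas, HRas TbrKO and TbrKO, the tumours gave 126.7, 207.1 and 124.3 CPM in the high integrin gate and 481.4, 641.7 and 267.0 CPM in the low gate. All 6 tumour libraries thus lay above every unwounded library and below both wounded EpdSC libraries of CL.

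Tyrobp encodes DAP12, an adaptor for activating receptors of myeloid and NK cells. Over the 10 unwounded libraries it ran from 0.385 to 2.12 CPM, with a median of 0.813. The wounded EpdSC libraries of CL had 163.0 and 117.1 CPM, that of BK 0.693, and the wounded HFSC lineage 1.42 and 1.37 CPM. The tumours had 12.1, 18.8 and 5.06 CPM in the high gate and 45.4, 111.4 and 22.1 CPM in the low gate, all above the unwounded range.

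Cd3g, a chain of the T cell receptor complex, was arranged otherwise. It ran from 0.514 to 4.61 CPM in the unwounded libraries, with a median of 1.13, and was 34.7 and 49.2 CPM in wounded EpdSC of CL. The value was 0.853 CPM in wounded EpdSC of BK and 0.173 and 0.493 CPM in the wounded HFSC lineage. Tumours of the high gate had 0.167, 0.214 and 0.738 CPM and those of the low gate 1.08, 3.30 and 0.470 CPM, so no tumour library lay above the unwounded range.

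Cd207 varied widely in unwounded skin, from 0.321 CPM in CL EpdSC library B to 17.8 CPM in the Tbr HFSC library, with a median of 2.54. Wounded EpdSC of CL had 21.3 and 37.96 CPM, that of BK 1.71, and the wounded HFSC lineage 0.173 and 0.341 CPM. In the tumours it was 1.00, 0.929 and 0.148 CPM in the high gate and 16.4, 7.46 and 0.504 CPM in the low gate. The low-gate tumours therefore overlapped the unwounded range for this gene.

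**Figure D2:**
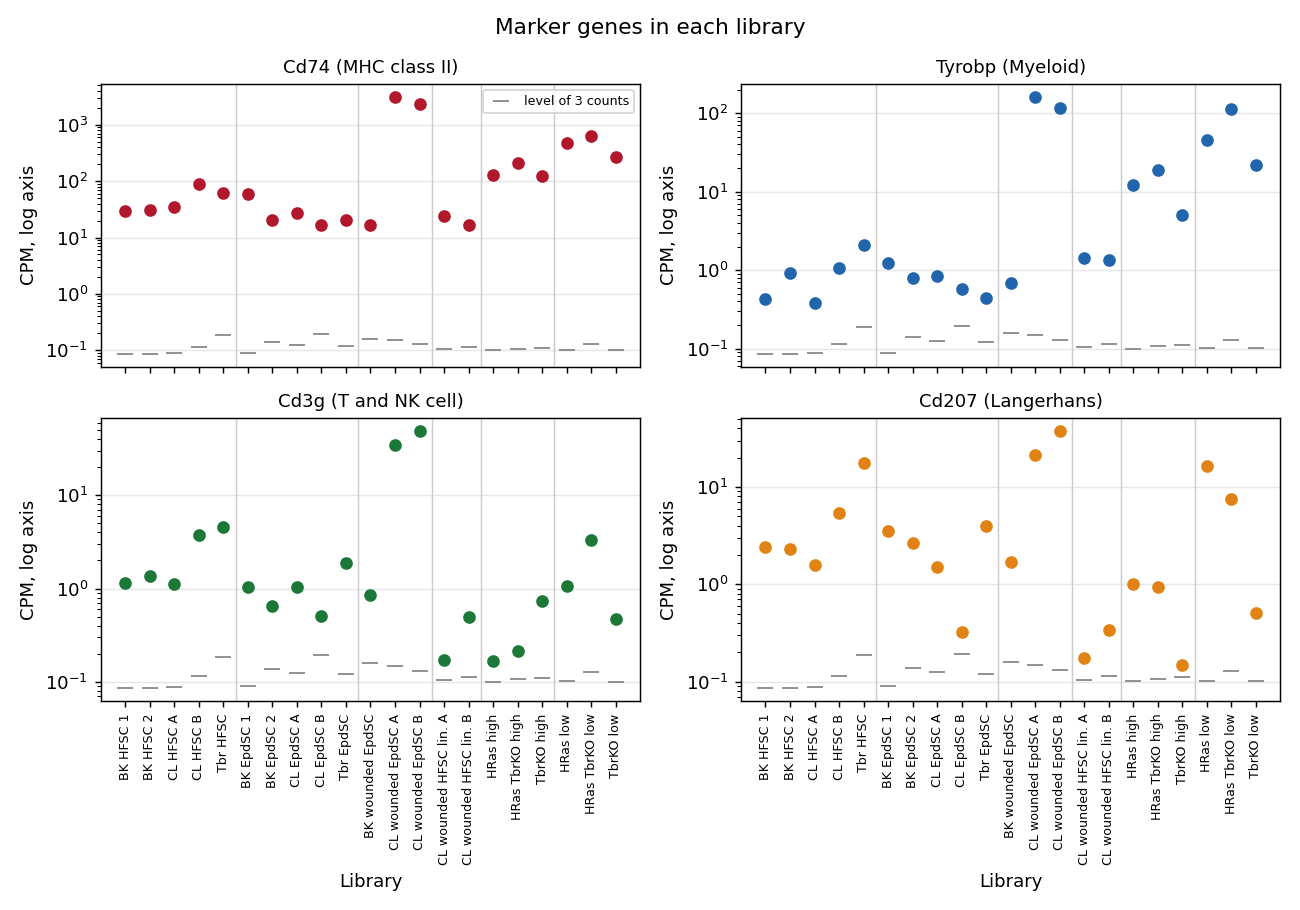
CPM (log axis) of Cd74, Tyrobp, Cd3g and Cd207 in each of the 21 libraries, with a grey dash at the level of 3 counts in that library. The 2 wounded EpdSC libraries of CL are the highest for all 4 genes, and all 6 tumour libraries exceed the unwounded libraries for Cd74 and Tyrobp but not for Cd3g or Cd207.

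Wounded EpdSC of the CL set carried far more RNA of the leukocyte genes than unwounded EpdSC. All 38 members were higher by edgeR's quasi-likelihood test at an adjusted p of 0.05, against a background of 30.2% higher and 28.2% lower of the 14831 genes tested. The members were chosen with earlier results of these data known, so that share is no independent support. Their median log2 fold change was 6.98, or 6.93 with genes at 0 in EpdSC set to their lower bounds, against -0.04 over all genes. Only 16 of the 38 passed the filter on low counts in the EpdSC libraries alone, and the others entered through other groups of the set. Cd3d, Cd8a, Fpr2, Ltb, Nkg7 and Pik3ap1 passed in wounded EpdSC, where they were high, and in no other group taken alone. All 16 were among the higher ones, beside 3188 of the 12337 genes that passed in EpdSC.

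The markers rose by 6.96 ± 0.59 (log2 fold change ± SE, n = 2 against 2, adjusted p = 9.37e-05, edgeR) for Cd74 and by 7.57 ± 0.49 (adjusted p = 3.48e-05) for Tyrobp. The values were 5.68 ± 0.71 (adjusted p = 0.000478) for Cd3g and 4.92 ± 0.82 (adjusted p = 0.00170) for Cd207. For each, both wounded libraries lay above both EpdSC libraries. Whether the libraries of 1 group stem from separate animals is not said in the labels, so all p-values here reflect the spread among these samples alone, and it may be a technical one.

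Class II genes moved together. H2-Aa, the alpha chain of I-A, was 12.48 and 8.87 CPM in EpdSC and 1577 and 1165 CPM in wounded EpdSC, a rise of 6.98 ± 0.47 (adjusted p = 3.75e-05). H2-Ab1, its beta chain, went from 10.8 and 11.8 to 2061 and 1376 CPM, a rise of 7.24 ± 0.48 (adjusted p = 3.58e-05). Ciita, the coactivator, went from 1.34 and 1.09 to 30.4 and 39.6 CPM, a rise of 4.82 ± 0.31 (adjusted p = 3.48e-05). H2-DMb1 rose least of the 38, by 3.23 ± 0.25, from a level of 8.17 and 7.26 CPM in EpdSC to 81.5 and 65.2 CPM. H2-DMb2 is a near copy of H2-DMb1, whose reads the counting could split, and had 24.0 and 16.8 CPM in the same wounded libraries against at most 0.268 CPM in unwounded skin.

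Among genes used by leukocytes at large, Fmnl1, a formin that shapes the actin cortex of blood cells, had the smallest adjusted p. It was 0.670 and 0.771 CPM in EpdSC and 89.7 and 85.1 CPM in wounded EpdSC, a rise of 6.91 ± 0.36 (adjusted p = 1.91e-05). Cd53, a leukocyte tetraspanin, went from 0.461 and 0.257 to 54.6 and 87.6 CPM, a rise of 7.54 ± 0.46 (adjusted p = 2.96e-05). Sash3, an adaptor of lymphocytes, went from 0.419 and 0.707 to 38.1 and 32.7 CPM, a rise of 5.99 ± 0.39 (adjusted p = 3.48e-05). The groups did not overlap for any of these genes. The least even of this list between the wounded libraries was Ptprc, which encodes the pan-leukocyte protein CD45 and had 24.8 CPM in library A and 96.4 in B.

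Several myeloid genes were at or near 0 in EpdSC. C1qb, a chain of the complement component C1q that tissue macrophages make, had no count in either EpdSC library and 193.9 and 125.7 CPM in the wounded ones, at least 1000-fold higher (adjusted p = 3.92e-05). That bound, like the others here, sets EpdSC at 3 counts per library and covers counting error only. C1qc was at least 473-fold higher, Fgr, a Src-family kinase of myeloid cells, at least 287-fold, and Fpr2, a formyl peptide receptor, at least 13.2-fold. Of the T cell genes Cd8a, the CD8 alpha chain, was at least 109-fold higher. Lyz2, the lysozyme of macrophages and neutrophils, went from 0.0419 and 0.643 to 118.3 and 122.0 CPM. Its near copy Lyz1 had 0.448 and 0.610 CPM in the wounded libraries.

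Marker sums of other cells moved with this comparison. The 8 dendritic cell markers summed to 221.0 and 205.3 CPM in wounded EpdSC and 0.670 and 0.386 in EpdSC. The 6 fibroblast markers summed to 645.9 and 691.5 CPM against 2.85 and 2.51, with all 6 higher in the test. Most of the dendritic sum was Itgax, at 160.7 and 138.9 CPM. Of the 9 macrophage markers tested 7 were higher and 1, Mertk, was lower (-2.36), while Cd163 was at 0 and 0.0872 CPM. Of the 6 keratinocyte markers, Krt14 was higher (2.59), Itga6, Trp63 and Krt15 were lower (-1.71, -1.74 and -6.03), and Krt5 (0.58) and Cdh1 (-0.30) did not pass. The 10 most abundant genes took 20.4% and 17.1% of the counts in the wounded libraries. Alas2, the only one of 5 erythrocyte markers with a count in any library, stood at 57.5 CPM in library A and 1.79 in B, while the 4 globin genes of that list were at 0 throughout. The mast cell markers were near 0, at 0 and 0.218 CPM. The part of each in the result was not tested.

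**Figure D3:**
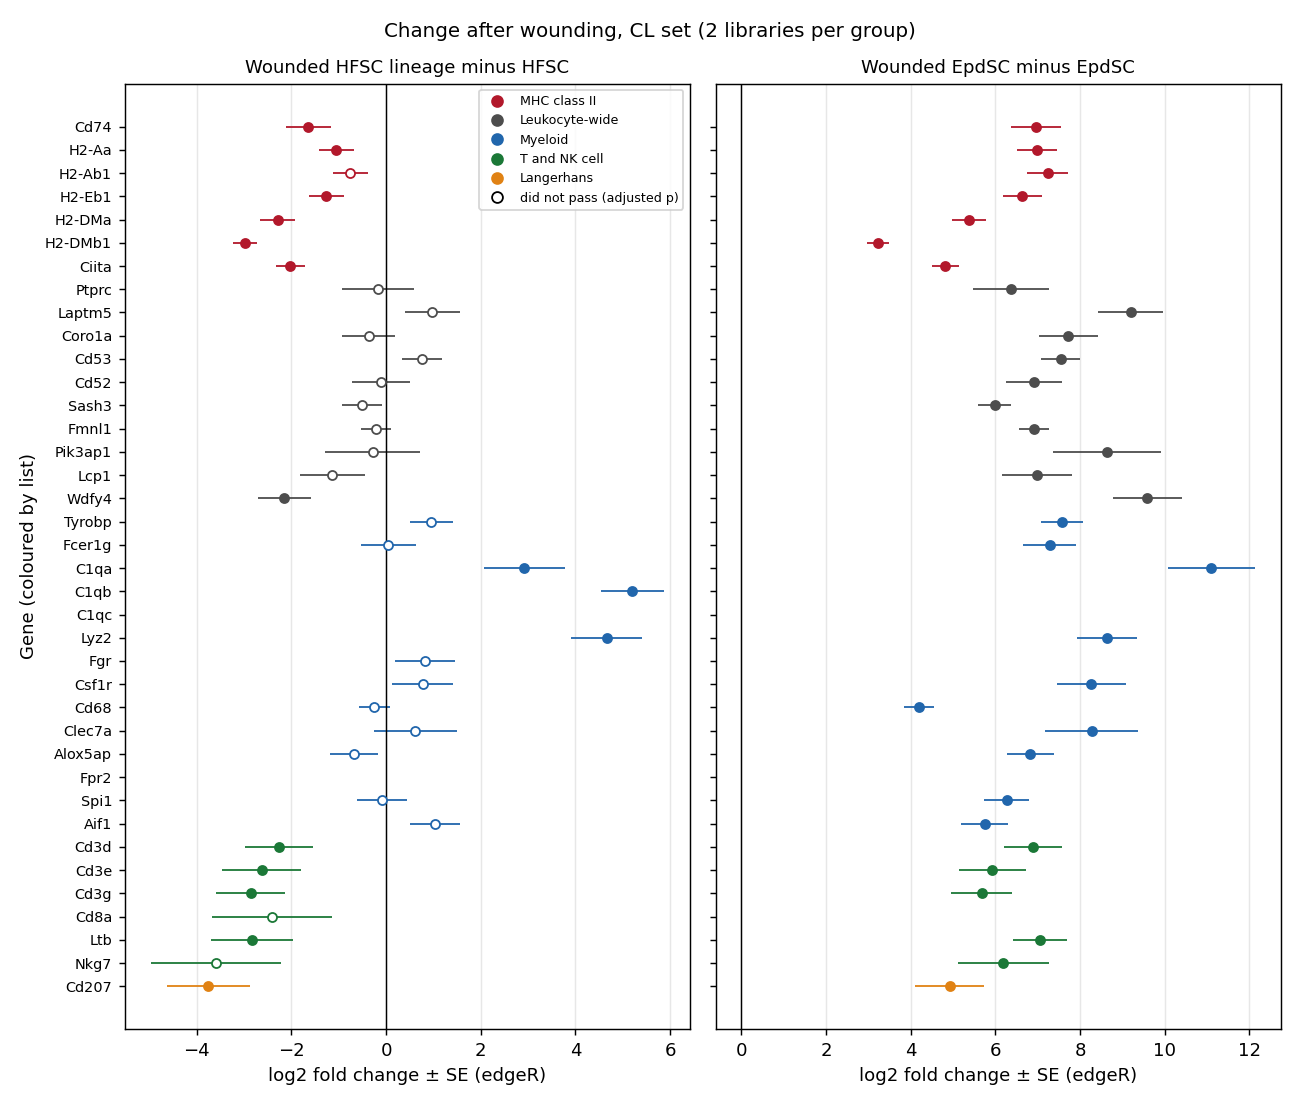
Log2 fold change ± SE of the members in the CL set, for the wounded HFSC lineage minus HFSC (left) and wounded EpdSC minus EpdSC (right), with open points for genes that did not pass the test. Genes with a group at 0 are not drawn. On the right every drawn member lies above 0, and on the left 3 drawn members lie above 0 with filled points and 12 below.

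The wounded HFSC lineage, taken from wounds in the same set by the opposite YFP gate, carried little of this RNA. All 38 members were lower there than in wounded EpdSC, against a background of 12.4% of genes lower, and the median log2 difference was -6.62 (-6.59 with the bound for Fpr2). Of the 27 members that passed the filter in the wounded HFSC lineage alone, all 27 were lower, beside 1167 of the 12553 genes that passed there. The differences were -7.09 ± 0.59 for Cd74 (n = 2 against 2, adjusted p = 0.000588, edgeR), -6.64 ± 0.46 for Tyrobp (adjusted p = 0.000350), -6.97 ± 0.77 for Cd3g (adjusted p = 0.00172) and -6.84 ± 0.93 for Cd207 (adjusted p = 0.00397).

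The smallest adjusted p here, 0.000241, was shared by H2-DMb1, Ciita, Sash3 and Fmnl1. H2-DMb1 had 2.08 and 2.81 CPM in the wounded HFSC lineage, a difference of -4.91 ± 0.27, and Ciita 0.624 and 0.493 CPM, a difference of -5.96 ± 0.33. Sash3 had 0.347 and 0.303 CPM, a difference of -6.74 ± 0.40, and Fmnl1 1.32 and 0.910 CPM, a difference of -6.29 ± 0.34. The wounded gates did not overlap for any of the 38 members, against 37.3% of genes that lay lower without overlap. H2-DMa, the partner of H2-DMb1, had 2.05 and 1.06 CPM against 190.7 and 128.2 CPM, a difference of -6.67 ± 0.43. Cd53 had 0.867 and 0.872 CPM, a difference of -6.35 ± 0.41. Fpr2 was at least 19.2-fold lower, with no count in either library of the HFSC lineage. The fibroblast markers, at 9.81 and 6.60 CPM in the HFSC lineage, differed between the same gates, and their part in the result was not tested.

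Whether the HFSC lineage and EpdSC responded differently to wounding was itself tested. It was negative and past the threshold for 35 of the 38 members, against 10.5% of all genes, with a median of -7.95 over the members and -0.06 over all genes. It was negative and past the threshold for all 15 members that passed the filter in each of the unwounded gates and in wounded HFSC-lineage cells, each taken alone, and the rest did not pass it in at least 1 of those groups. Both responses use their own unwounded group, and the gates changed with wounding in both. For Lyz2 the difference, -3.98 ± 1.34, did not pass (adjusted p = 0.0761), and for C1qc and Fpr2, each with groups at 0, the fitted difference could not be interpreted. C1qb, Fgr and Cd8a, among the 35, had no count in either EpdSC library, so the size of their difference is not fixed. The median includes all of these genes at their fitted values.

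Against unwounded HFSC, the wounded HFSC lineage had more RNA of the C1q genes and Lyz2 and less of several class II and T cell genes. Of the 38 members, 4 were higher and 12 lower, against 21.4% and 24.7% of all genes, so the first share was below its background and the second not far above it. Of the 24 members that passed the filter in HFSC alone 0 were higher, beside 2833 of 13362 genes, so the 4 entered through the group where they were high. Of the 27 that passed in the wounded lineage alone 6 were lower, beside 2718 of 12553 genes. All 6 were class II genes or their coactivator Ciita, and the other 6 lower members did not pass the filter there. The 4 higher were the C1q chains and Lyz2. C1qa was 0 and 0.423 CPM in HFSC and 1.80 and 1.18 CPM in the wounded lineage, a rise of 2.92 ± 0.86 (n = 2 against 2, adjusted p = 0.0252, edgeR). C1qb went from 0.0296 and 0.0770 to 2.81 and 1.29 CPM, a rise of 5.20 ± 0.67 (adjusted p = 0.00113). C1qc had no count in HFSC and 1.32 and 0.796 CPM in the wounded lineage, at least 10.3-fold higher (adjusted p = 0.00142). Lyz2 went from 0.0592 and 0.154 to 2.29 and 3.11 CPM, a rise of 4.66 ± 0.75 (adjusted p = 0.00191).

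On the lower side were 6 of the 7 class II genes, with H2-Ab1 at -0.76 ± 0.37 not passing (adjusted p = 0.126). H2-DMb1 went from 17.8 and 20.5 to 2.08 and 2.81 CPM, a difference of -2.98 ± 0.25 with an adjusted p of 0.000119. Ciita went from 2.16 and 2.39 to 0.624 and 0.493 CPM, a difference of -2.02 ± 0.31 (adjusted p = 0.00159), and H2-DMa from 5.95 and 9.20 to 2.05 and 1.06 CPM, a difference of -2.29 ± 0.37 (adjusted p = 0.00204). Groups were fully separate for all 3. Cd74 was 34.2 and 90.9 CPM in HFSC, and its difference was -1.64 ± 0.47 (adjusted p = 0.0232). Tyrobp, at 0.96 ± 0.45, did not pass (adjusted p = 0.116).

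The other lower members were Wdfy4, a protein that dendritic cells need for cross-presentation, the T cell genes Cd3d, Cd3e, Cd3g and Ltb, and Cd207. Lrrc18, which lies inside the span of Wdfy4 and may share its reads, went from 3.25 and 1.08 CPM in HFSC to 0.208 and 0 in the wounded lineage. Cd3g fell by 2.86 ± 0.73 on the log2 scale (adjusted p = 0.0145) and Cd207 by 3.75 ± 0.88 (adjusted p = 0.0103). Other markers moved in this comparison too, in both directions. Of 9 macrophage markers tested, the C1q chains among them, 6 were higher and 2 lower, with Mertk at -4.20 and Cd163 at -3.46. Of 6 fibroblast markers Dcn was higher (2.53) and Col1a1 and Col1a2 lower (-2.35 and -4.19), and of 5 melanocyte markers 3 were lower, Dct at -1.69 among them. The part of these in the result was not tested.

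Much of the comparison rested on single libraries. HFSC library B held 285.2 CPM of the members in sum and library A 129.7. Without HFSC library B, 10 members were higher, among them Tyrobp, Aif1, Csf1r, Fcer1g, Fgr and Laptm5, and 3 were lower, namely Ciita, H2-DMa and H2-DMb1. Without library A of the wounded HFSC lineage 3 were higher and 4 lower. C1qb, C1qc, Lyz2, Ciita, H2-DMa and H2-DMb1 were called in both of these fits.

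Unwounded HFSC and EpdSC differed at few of the members. In CL 3 were higher in HFSC and 0 lower by edgeR, against 7.19% and 3.63% of all genes. H2-DMb1 and Wdfy4 were higher in HFSC in both CL and BK. H2-DMb1 was 17.8 and 20.5 CPM in HFSC and 8.17 and 7.26 CPM in EpdSC of CL, a difference of 1.30 ± 0.24 (n = 2 against 2, adjusted p = 0.0114, edgeR). In BK it was 28.7 and 26.8 CPM against 9.90 and 4.59, a difference of 1.93 ± 0.44 (adjusted p = 0.0358). The Tbr libraries, 1 each and with no test, had 21.5 CPM in HFSC and 9.80 in EpdSC. All 5 HFSC libraries thus lay above all 5 EpdSC libraries for H2-DMb1.

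Wdfy4 was 2.69 and 2.81 CPM in HFSC and 0.0838 and 0 in EpdSC of CL, a difference of 5.64 ± 0.86 (adjusted p = 0.00538). In BK it was 11.2 and 6.42 CPM against 0.149 and 0.0464, a difference of 6.32 ± 0.69 (adjusted p = 0.00483), and the Tbr libraries had 1.99 CPM and 0. Wdfy4 did not pass the filter in EpdSC alone in either set. It thus entered both tests through groups where it was high, in BK through HFSC. Lrrc18 lies inside the span of Wdfy4 (chr14:32991382-33015300 within chr14:32959547-33193855, GRCm38.p6), and no source used here says whether the counting used strand, so their reads cannot be told apart. Lrrc18 had 8.64 and 4.95 CPM in HFSC of BK, 3.25 and 1.08 in HFSC of CL and 6.73 in the Tbr HFSC library, against 0.0596 to 0.707 CPM in EpdSC. In the wounded EpdSC libraries of CL the 2 genes parted, with Wdfy4 at 46.9 and 39.1 CPM and Lrrc18 at 0.0996 and 0.

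Some markers of other cells were higher in HFSC as well. Col1a1 and Col1a2 of the fibroblast list were higher in CL (3.13 and 5.36) and BK (4.76 and 6.65), as were Dct of the melanocyte list (3.31 and 5.14) and Mertk of the macrophage list (2.94 and 4.15). Others of these lists did not pass in either set, among them Dcn (-2.20 in CL and -0.39 in BK), Pmel (-0.84 and 1.14) and Csf1r (1.10 and -0.49). None of the lists was thus higher as a whole, and the part of these markers in the result was not tested.

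The third gene called in CL was H2-Ab1, at 1.44 ± 0.38 (adjusted p = 0.0492), with 19.1 and 42.2 CPM in HFSC and 10.8 and 11.8 CPM in EpdSC. All 7 class II genes had both HFSC libraries above both EpdSC libraries in CL, as did 28% of all genes tested. BK did not share that order. There H2-Ab1 had 13.5 and 16.1 CPM in HFSC and 25.7 and 10.8 in EpdSC, and the 2 members called were H2-DMb1 and Wdfy4, both higher, of 33 tested, against 7.91% of genes higher and 6.47% lower. The markers did not pass in either set, with Cd74 at 1.51 ± 0.47 in CL (adjusted p = 0.0910) and -0.40 ± 0.49 in BK (adjusted p = 0.640), and Cd207 at 1.84 ± 0.77 (adjusted p = 0.206) and -0.40 ± 0.43 (adjusted p = 0.586).

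Wdfy4 kept its call in CL in every fit that left out 1 library. H2-DMb1 lost it in CL without HFSC library B, EpdSC library A or EpdSC library B (adjusted p = 0.0627, 0.0942 and 0.116) and in BK without HFSC library 1 or 2 (adjusted p = 0.0801 and 0.0591). The members called in CL and BK also changed when an HFSC or EpdSC library was left out, which leaves 1 library in that group.

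Wounded EpdSC of BK did not show the rise seen in CL. By edgeR 0 of 33 members tested passed the threshold, with 5 at a p under 0.05 before adjustment, while DESeq2 called 0 of 23, against 1.77% of genes higher and 6.21% lower by edgeR. The wounded library lay below both EpdSC libraries for 16 members and above both for 6, against 39.9% and 39.1% of all genes. Cd74 was 17.0 CPM there and 58.3 and 20.9 CPM in EpdSC, a difference of -1.28 ± 0.64 (n = 1 against 2, adjusted p = 0.209). Tyrobp was 0.693 CPM against 1.22 and 0.788, a difference of -0.60 ± 0.87 (adjusted p = 0.654).

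The single wounded library was assumed to vary like the others of the set. It was of 22281499 counts, and 15 members passed the filter there. Of the 7 neutrophil markers in the table, Cxcr2 stood at 32.0 CPM in it, against 6.44 and 2.04 CPM in EpdSC, and the other 6 at 0.373 CPM or less, while the fibroblast sum was 2.29 CPM. The members called changed when either EpdSC library was left out, which leaves 1 library in each of the 2 groups. The gates of the wounded EpdSC libraries differed between the sets, with YFP- cells in CL and no YFP mark in BK, so set and gate cannot be told apart.

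In the tumours, cells with low integrin alpha 6 carried more RNA of the leukocyte genes than cells with high integrin alpha 6. With the genotype as a block, 20 of the 34 members tested were lower in the high gate and 0 higher, against 2.95% and 0.124% of the 14519 genes. The difference was negative in all 3 genotypes for 32 members, against 21.2% of genes, and the gates did not overlap for 18, against 6.81%. The median log2 difference, high minus low, was -1.86 over the members and 0.05 over all genes. Of the 30 members that passed the filter in the high gate alone, 18 were lower, beside 356 of the 13086 genes that passed it. Fpr2 and Cd207, also called lower, did not pass it there and entered through the low gate, where they were high.

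Clec7a, which encodes the beta-glucan receptor dectin-1, was 16.8, 47.2 and 8.64 CPM in the high gate and 81.6, 297.7 and 33.3 CPM in the low gate of HRas, HRas TbrKO and TbrKO tumours. Its difference was -2.28 ± 0.16 (n = 3 against 3, adjusted p = 0.0199, edgeR). Alox5ap, which feeds arachidonic acid to 5-lipoxygenase for leukotriene synthesis, was 5.66, 7.65 and 2.03 CPM against 31.0, 50.4 and 9.40, a difference of -2.45 ± 0.17 (adjusted p = 0.0199). Fpr2 was 0.569, 2.64 and 0.0369 CPM against 6.40, 42.7 and 0.571, a difference of -3.74 ± 0.26 (adjusted p = 0.0199). The low gate was higher within each genotype for all 3 genes, though only for Alox5ap did the gates not overlap across genotypes.

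Tyrobp, with the values given above, differed by -2.18 ± 0.17 (adjusted p = 0.0221), and its gates did not overlap. Coro1a, an actin regulator of leukocytes, was 11.7, 16.9 and 4.32 CPM against 47.4, 80.1 and 10.9, a difference of -1.86 ± 0.20 (adjusted p = 0.0265). Cd53 was 28.9, 35.7 and 4.25 CPM against 122.2, 350.2 and 20.3, a difference of -2.53 ± 0.27 (adjusted p = 0.0265). Ptprc was 16.9, 21.7 and 5.91 CPM against 73.2, 180.7 and 20.95, a difference of -2.32 ± 0.26 (adjusted p = 0.0270). The TbrKO tumours were the lowest in both gates for all 4 of these genes.

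Wdfy4 was 1.54, 1.32 and 0.369 CPM against 23.6, 12.4 and 1.61, a difference of -3.20 ± 0.38 (adjusted p = 0.0291). Cd74 differed by -1.53 ± 0.18 (adjusted p = 0.0291), and Cd207 by -3.18 ± 0.45 (adjusted p = 0.0399). By list, 4 of 7 class II genes, 7 of 10 leukocyte-wide genes and 8 of 14 myeloid genes passed, all lower in the high gate, as did Cd207. Of the T and NK cell genes only Cd3g and Ltb reached the filter and 0 of these 2 passed, with Cd3g at -1.90 ± 0.95 (adjusted p = 0.303). Cd3d, Cd3e, Cd8a and Nkg7 were not tested, and none exceeded 1.89 CPM in any tumour library.

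The C1q chains did not pass in this test, with adjusted p of 0.0872 for C1qa, 0.114 for C1qb and 0.0880 for C1qc, although both gates were far above unwounded skin. C1qb was 34.7, 37.2 and 12.1 CPM in the high gate and 56.5, 100.5 and 82.2 CPM in the low gate. Lyz2 was 112.0, 155.7 and 47.4 CPM against 225.9, 445.3 and 284.2 (adjusted p = 0.0681). For all 4 genes the gates did not overlap, and the high-minus-low difference was widest in the TbrKO tumours and narrowest in the HRas tumours. Its values for C1qb were -0.65, -1.40 and -2.78 in HRas, HRas TbrKO and TbrKO. All 7 class II genes had the reverse order, with Cd74 at -1.87, -1.59 and -1.12. With 1 library per genotype and gate, these differences between genotypes have no replicate check.

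**Figure D4:**
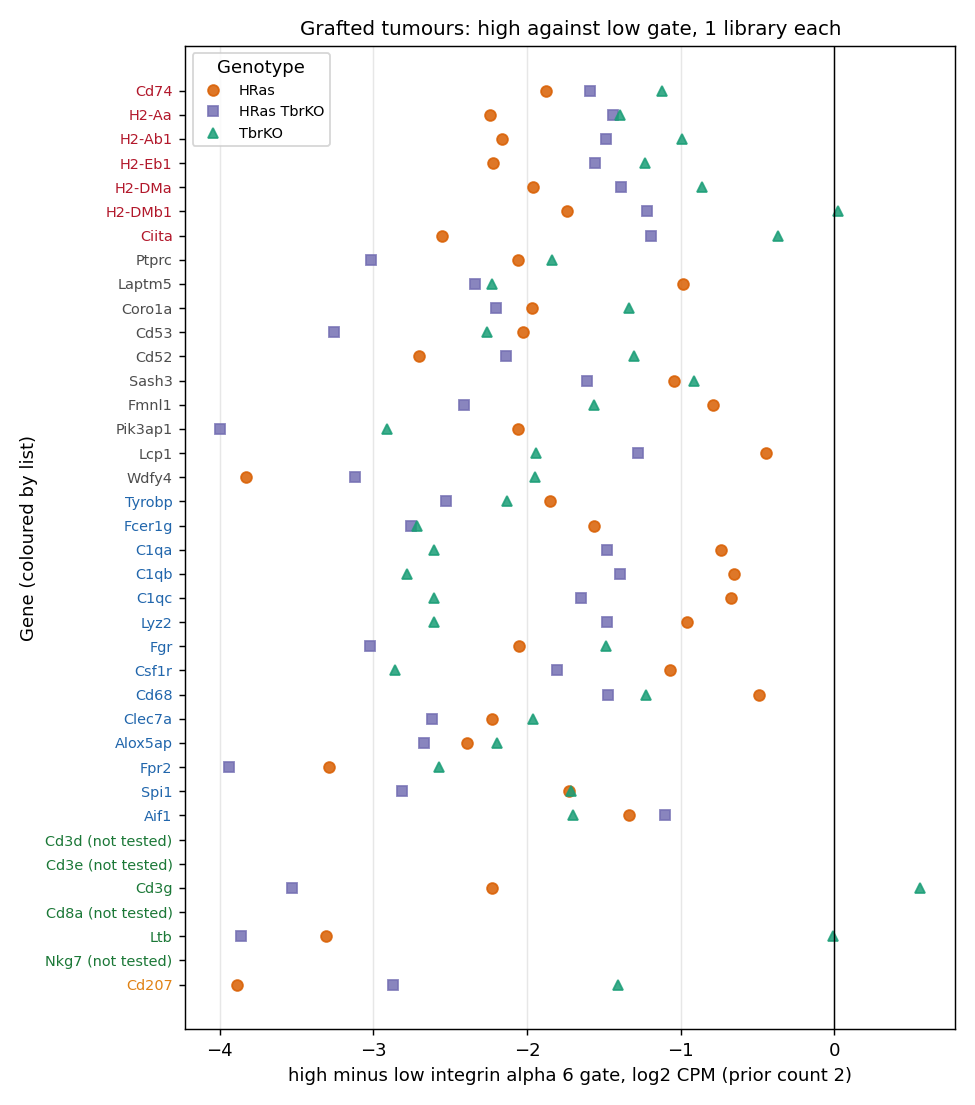
High minus low integrin gate, as the difference in log2 CPM with a prior count of 2, for each member in the HRas, HRas TbrKO and TbrKO tumours (1 library per gate and genotype, no error bars). Points lie below 0 for 32 of the 34 members in all 3 genotypes, with Cd3g at 0.56 and H2-DMb1 at 0.02 in TbrKO tumours as the exceptions.

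Fibroblast markers moved the same way between the gates, with all 6 lower in the high gate and sums of 2137, 888.2 and 1691 CPM in the high gate against 11150, 9536 and 5516 CPM in the low gate. Neutrophil markers, chiefly Cxcr2 and Csf3r, summed to 45.8, 40.0 and 1.74 CPM against 113.8, 422.8 and 5.61. The part of either in the result was not tested. The calls depended on single libraries and on the block. Without the HRas pair, or without the HRas TbrKO pair, 0 members and 0 of all genes passed by edgeR, with 30 members at an unadjusted p under 0.05 in each case, while without the TbrKO pair 35 passed. Without the genotype block 0 passed, with 25 at an unadjusted p under 0.05, and DESeq2 with the block called 31. The shares of all genes for the fits with 35 and 31 calls are not given, so those counts have no background.

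Wounds and tumours were set side by side as a description across the sets. Across all 21 libraries 28 members were highest in a wounded EpdSC library of CL, as were 14.8% of the 16189 genes with at least 10 counts in 2 libraries. The other 10 were highest in the low-gate HRas TbrKO library, against 6.33% of genes. These were Ptprc, Cd53, Pik3ap1, Lcp1, Fcer1g, C1qa, Lyz2, Cd68, Clec7a and Fpr2. Both wounded EpdSC libraries lay above all 10 unwounded libraries for 38 members, against 20.4% of genes. All 3 low-gate tumours did so for 29, against 15.7%, and all 6 tumours for 21, against 10.6%.

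Among the 14 myeloid genes, all 14 had the 3 low-gate tumours above every unwounded library, as had 9 of 10 leukocyte-wide genes, the exception being Wdfy4. For class II it was 4 of 7 and for T and NK cell genes 2 of 6, and Cd207 did not show it. The median ratio of the low-gate tumours to unwounded skin, as log2 of mean CPM plus 0.1, was 6.12 for myeloid, 5.65 for leukocyte-wide, 3.12 for class II and 0.28 for T and NK cell genes. In wounded EpdSC of CL the same ratio was 6.5, 6.19, 5.96 and 5.25. These medians were taken across sets that were gated and prepared apart, and have no test.

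Set directly against each other, both wounded EpdSC libraries exceeded all 3 low-gate tumours for all 7 class II genes, all 6 T and NK cell genes and Cd207, and for 5 of 10 leukocyte-wide and 6 of 14 myeloid genes, against 26.4% of all genes. They lay below all 3 for 2 myeloid genes, Clec7a and Lyz2, against 33.9% of genes. Clec7a had 10.3 and 23.8 CPM in wounded EpdSC, below the 33.3 CPM of the lowest low-gate tumour. Lyz2 had 118.3 and 122.0 CPM, below the 225.9 CPM of the lowest. The ranges overlapped for the remaining 5 leukocyte-wide and 6 myeloid genes.

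**Figure D5:**
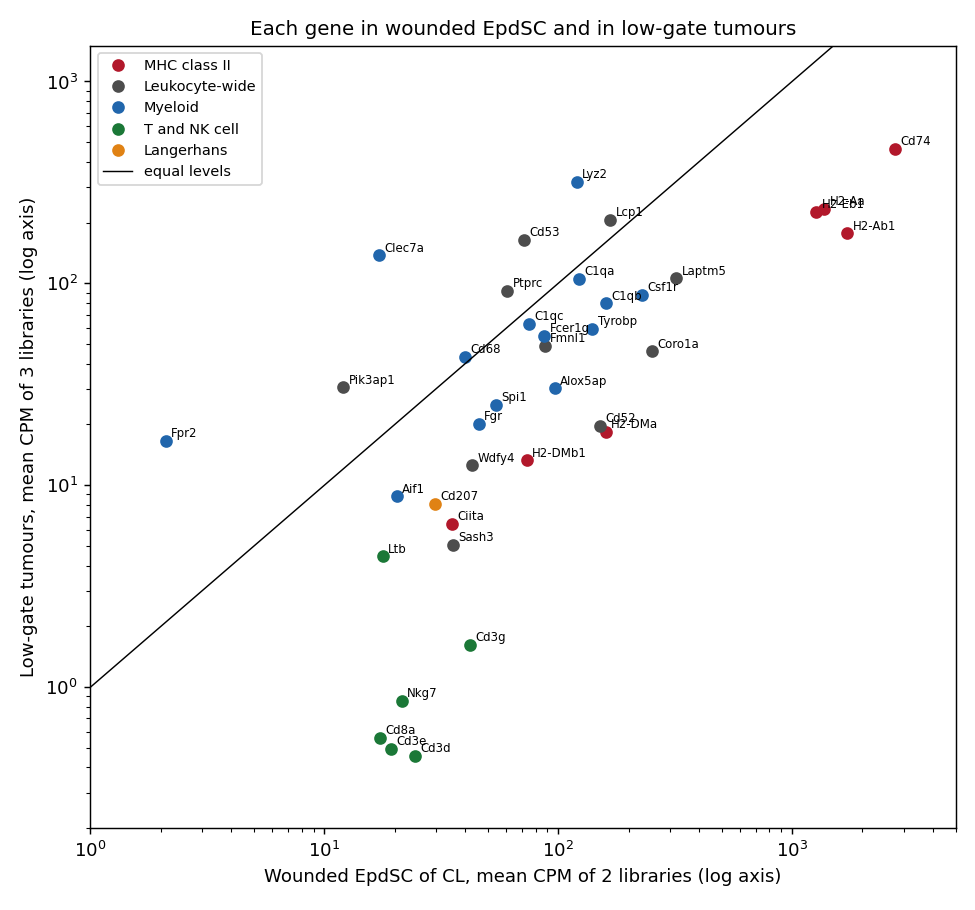
Mean CPM of each member in the 2 wounded EpdSC libraries of CL (x) against the mean of the 3 low-gate tumour libraries (y), on log axes, with the line of equal level. Class II and T and NK cell genes lie below the line, while Clec7a, Fpr2, Lyz2 and several other myeloid and leukocyte-wide genes lie above it.

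The rest of the class II pathway, 13 further genes for peptide cutting, loading, costimulation and transcription, followed the wounded EpdSC comparison in part. There 10 of the 13 were higher and 1 lower, against 30.2% and 28.2% of all genes. Of the higher ones, H2-Oa, H2-Ob, H2-Eb2 and Cd40 had no count in either EpdSC library, so none of them entered the test through EpdSC. H2-DMb2, Ctss, Cd86 and Cd80 had 8 counts or fewer in each EpdSC library. Ctss, the cathepsin that trims the invariant chain, was 0.335 and 0 CPM in EpdSC and 222.0 and 283.6 CPM in wounded EpdSC, a rise of 10.28 ± 0.62 (n = 2 against 2, edgeR). Lgmn, an endosomal protease, rose by 3.32 and Ifi30, a lysosomal thiol reductase, by 2.59. The one lower was Rfx5, a subunit of the factor that binds the X box, at -1.84. In the wounded HFSC lineage against HFSC, Ctss, Lgmn and Cd80 were higher (2.87, 1.21 and 5.04) and Rfx5 and Rfxank lower (-1.03 and -0.87), against 21.4% and 24.7% of genes. Between the tumour gates 2 of 11 tested were lower in the high gate, Ctss at -1.72 and the costimulator Cd86 at -1.94, and 0 higher, against 2.95% and 0.124% of genes.

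Nearly all cells use MHC class I to show peptides to CD8 T cells. Of 10 class I pathway genes 0 were higher and 4 lower in wounded EpdSC of CL, with the class I coactivator Nlrc5 at -2.37, Erap1, which trims peptides, at -0.83, and the peptide transporter genes Tap1 and Tap2 at -0.72 and -0.66. Among all genes 28.2% were lower and 30.2% higher there. In the wounded HFSC lineage 6 were lower, among them Tap1 (-1.76) and Nlrc5 (-1.42), and 0 higher, against 24.7% and 21.4% of genes. Between the tumour gates 0 of the 10 passed by edgeR, with 2 at an unadjusted p under 0.05. The 10 genes summed to 791.4 to 1929 CPM in the 4 HRas-bearing tumour libraries and to 5946 and 5655 CPM in the TbrKO tumours, while the other libraries lay between 1900 and 6643 CPM.

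Open chromatin was mapped by ATAC-seq in HFSC and EpdSC (postnatal day 50), wound cells gated on integrin alpha 6 and Sca1, and HRas tumour cells gated on GFP with high integrin alpha 6 and beta 1, with 1 pooled peak list per population and so no test. These mice were female, of mixed CD1/B6 background, and the gates name no lineage step. The lists held 55432, 25741, 56860 and 54198 peaks, called from 26825550, 13963471, 11140895 and 29579794 fragments. Depth was not evened out between them, so a peak missing from a list does not show closed chromatin. A peak within 1 kb of an annotated start was found for 5 of the 29 members with an entry in HFSC, against 46.6% of all 27025 genes, for 1 in EpdSC against 33.5%, for 4 in wound against 45.2%, and for 3 in tumour against 42.7%. Within 5 kb the counts were 8, 3, 8 and 8 in the same order, against 55.4%, 39.4%, 55.5% and 52.7% of genes. For peaks within 1 kb with a -log10 q of at least 10 they were 4, 0, 2 and 1, against 40.1%, 22.1%, 37.2% and 34.6%. The starts of most leukocyte genes were thus not among the called peaks of any population, and none of the leukocyte-wide, T and NK cell or Langerhans members had one.

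The class II genes were the exception in HFSC, where all 4 with an entry had a peak. At H2-DMb1 the peak was called in HFSC alone (chr17:34152881-34153450, mm10), with its summit 56 bases before a start, a fold enrichment of 8.14 and a -log10 q of 20.7, all as the authors' peak caller gave them. At H2-Aa it was also called in HFSC alone (chr17:34287726-34287995), with its summit 98 bases before the start and a fold of 5.82. H2-Eb1 had a peak in all 4 populations, with folds of 7.59 in HFSC, 7.42 in wound, 3.81 in EpdSC and 3.48 in tumour. The HFSC peak of each of these 3 genes covered the bases in capitals in the promoters shown above.

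H2-DMa had peaks of low fold in HFSC (2.53), wound (2.90) and tumour (3.51), at a start that lies within 1 kb of a start of Brd2. Among myeloid genes Cd68, an endosomal protein of macrophages, had peaks in HFSC, wound and tumour with folds of 4.56, 6.70 and 5.50, and C1qc had one in wound, with its summit 1052 bases before the start and a fold of 3.35. Between the assays, H2-DMb1 had its peak in HFSC and not in EpdSC, and its RNA was higher in HFSC than in EpdSC in both sets tested. H2-Aa, H2-DMa and Cd68 also had a peak in HFSC and not in EpdSC, but their RNA did not pass in either set. For H2-Aa the log2 difference, HFSC minus EpdSC, was 1.197 in CL (edgeR adjusted p = 0.09244) and -0.6294 in BK (adjusted p = 0.4027). The EpdSC list came from fewer fragments than the HFSC list, and the part of depth was not tested. The wound list had no peak at H2-DMb1, while its RNA was higher in wounded EpdSC of CL. The wound sample of the ATAC-seq and the wounded RNA samples came from different strains and gates and cannot be matched.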

How the data were processed

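The deposited RNA values were whole-number read counts per gene, with no normalisation, and all 21 library columns of the table were matched by name, leaving 0 unmatched. A line of totals was kept out. Per the labels' protocols, libraries were TruSeq preparations of total RNA read as single reads of 51 cycles. The tools named are MACS2 2.1.1.20160309, Picard, Bowtie and STAR, with build mm10, per the submitters' processing notes. Which program counted reads, with what annotation and strand setting, is not given in the sources used here. Peaks were called by the authors with MACS2, per the file headers, on paired ends, keeping every read of an alignment whose name says deduplicated, without a control and at a q-value of 0.05. The pileup signal, fold enrichment ratio and -log10 q-value of a peak are the authors' deposited values. The header of each peak list names a pooled alignment, so replicates cannot be compared.

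The test was that of edgeR 4.0.16 under R 4.3.3 (quasi-likelihood F test, TMM, filterByExpr, Benjamini-Hochberg adjustment over all genes tested, threshold 0.05). The sets CL (8 libraries) and BK (5 libraries) were each fitted with 1 mean per group and the 6 tumour libraries with genotype as a block. Every adjusted p of a gene is from that test, and an SE is the size of the log2 difference over the square root of F. A fold against a group at 0 uses a floor of 3 counts per library and covers counting error only. The test was checked on simulated data. Between libraries of 1 group the chi-square of the counts per degree of freedom was 15 to 279.7, so none were copies. Replicate letters or numbers shared between groups were not taken as pairs. The correlation of deviations was 0.46 between the wounded gates of CL, -0.18 to 0.04 in the other 5 pairs of CL groups and -0.24 in BK.

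The members and the lists were chosen with earlier results of these data known. Per-library values are given for Cd74, Tyrobp, Cd3g and Cd207, for every member called where at most 8 were, and otherwise for the 8 with the smallest adjusted p. Other members are named for their list or after their values were seen. Of other lists, called genes are named where at most 5, otherwise the 4 with the smallest adjusted p, and values outside this rule were chosen after they were seen. Promoters and starts came from RefSeq tables on GRCm38.p6, the assembly of mm10, which held 29 of the 38 members. Alternatives were DESeq2 1.42.0, its size factors within edgeR, no filter, each library or genotype left out, replicate and genotype blocks, 2-group fits, the per-library count files, and other peak windows and thresholds.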

Additional observations from a re-analysis of the deposited data

Results flagged for a closer look

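In CL the difference of the wound responses, HFSC lineage minus EpdSC, was negative and past the threshold for 35 of the 38 members, against 10.5% of all genes. Only 15 members passed the filter in each unwounded gate and in wounded HFSC-lineage cells, each taken alone, and all 15 were among the 35. The gates changed with wounding in both lineages, so wound and gate cannot be told apart. For the marker genes the difference, HFSC lineage minus EpdSC, was -8.60 ± 0.74 for Cd74 (log2 ± SE, 2 libraries in each of 4 groups, edgeR adjusted p = 0.000715), -6.61 ± 0.65 for Tyrobp (adjusted p = 0.00110), -8.54 ± 1.005 for Cd3g (adjusted p = 0.00219) and -8.68 ± 1.19 for Cd207 (adjusted p = 0.00388).

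For 16 members both wounded EpdSC libraries of CL lay above both EpdSC libraries of their set, while the wounded EpdSC library of BK lay below both of its own, as was the case for 11.5% of the 14134 genes tested in both sets. All 38 members lay above in CL, so the count is that of the members below in BK. Those were 16 of the 33 tested there, against 39.9% of all genes. This contrast of the sets was not tested, and it cannot be told apart from the difference in gate.

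In the TbrKO tumours 2 members were not lower in the high gate as in the other genotypes, each from 1 library per gate and not tested. The high-minus-low difference in log2 CPM was 0.56 for Cd3g, against -2.23 in HRas and -3.53 in HRas TbrKO tumours. That 0.56 rests on 20 counts in the high gate and 14 in the low. For H2-DMb1 the difference was 0.02, about equal in both gates, against -1.74 and -1.22.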

How the results depend on the processing

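The counts of members called held within 1.5 times under all alternatives for wounded EpdSC against EpdSC (37 to 38), the wounded HFSC lineage against wounded EpdSC (34 to 38) and the difference of responses (30 to 37). Elsewhere they moved, and the cause was not tested. The share of all genes called in each alternative fit is not given, so the counts show the movement alone. For HFSC against EpdSC in CL, 3 became 7 with DESeq2, 6 without a filter, and 1 to 10 with a library left out. For the wounded HFSC lineage against HFSC, 16 became 7 to 19 with a library left out. In BK, HFSC against EpdSC ranged from 1 to 6 with a library left out, and wounded EpdSC from 0 to 9, with 1 called without a filter. For the tumour gates, 20 became 31 with DESeq2, 11 with its size factors, 0 without the genotype block, and 0 to 35 with a genotype left out. With the replicate block the counts were 2, 15, 38, 38 and 35 in the CL comparisons, in the order HFSC against EpdSC, wounded HFSC lineage, wounded EpdSC, wounded against wounded and difference, and 2 in BK. The crossed pairing in BK, chosen after seeing the data, gave 3. Of the values of single genes, 1932 kept direction and side, 149 lost the threshold, 8 gained it and 6 changed sign. None of the 6 passed the threshold. They were Tyrobp for HFSC against EpdSC in CL, which went from -0.03 to 0.56 without HFSC library A (and -0.93 without B), 0.28 without EpdSC library A, 0 without wounded EpdSC library A and 0.07 with only the 2 groups fitted, Cd74 for HFSC against EpdSC in BK (0.51 without EpdSC library 1, -0.94 without 2) and Cd3g for wounded EpdSC in BK (0.32 without EpdSC library 1, -0.42 without 2). Below about 0.0858 to 0.193 CPM a level rests on 3 counts or fewer.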

Other observations

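Markers of other cell types had their own distribution over the libraries. Neutrophil markers, of which 7 were in the table, summed to 422.8 CPM in the low-gate HRas TbrKO library and 113.8 CPM in the low-gate HRas library. They summed to 5.61 CPM in the low-gate TbrKO library and at most 6.498 CPM in unwounded skin. Csf3r, the receptor for granulocyte colony-stimulating factor, was 250.8 and 53.5 CPM in those HRas-bearing libraries and 8.41 and 26.5 CPM in the wounded EpdSC libraries of CL. In wounded EpdSC of BK it was 0.107 CPM, although Cxcr2 stood at 32.0 CPM there. Mast cell markers (5 genes) summed to 5.61 to 38.8 CPM in the tumours and at most 1.44 CPM elsewhere, the highest of the latter being wounded EpdSC of BK, where Cma1 was the only one with a count. B cell markers (4 genes) stayed at 2.64 CPM or less in every library.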
